A study of Mus musculus with 2 samples.

Results

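The respiratory chain of the heart was examined through the nuclear genes of complex III (ubiquinol-cytochrome c reductase), complex IV (cytochrome c oxidase) and ATP synthase. Members were the array probes whose platform gene symbol started with Uqcr, was Cyc1, started with Cox4, Cox5, Cox6, Cox7 or Cox8, or started with Atp5. Of 16390 genes with a named probe, 41 met these names and 39 of them encode subunits: 8 of complex III, 16 of complex IV (with Cox7a2l, a supercomplex assembly factor of the same family) and 15 of ATP synthase. Each of the 39 had 1 probe. All 4 hearts came from male C57BL/6J mice that were 6 months old and had spent 3 months either feeding freely (AL, ad libitum) or on a caloric restriction of 40% (CR). A pair of hearts, 1 per diet, came from control mice, and the other pair came from mice in which Sirt1, an NAD-dependent deacetylase, was deleted in cardiomyocytes alone. The driver of the deletion is not given in the labels. RNA of the whole heart was used, so fewer cells of a type and less RNA per cell cannot be told apart. Each genotype had its own array, on which the AL heart was labelled with Cy5 and the CR heart with Cy3. Diet and dye therefore cannot be told apart within an array, nor genotype and array between them. With 1 heart per condition no difference below has a replicate check and no test was run.

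Complex III takes electrons from ubiquinol, passes them to cytochrome c and moves protons out of the matrix. Complex IV hands the electrons of cytochrome c to oxygen and moves further protons. ATP synthase lets the protons flow back through its membrane part, Fo, and uses the turning of a ring of c subunits to make ATP in its catalytic head, F1. Heart muscle depends on this chain for nearly all of its ATP, and complex IV carries subunit isoforms made mainly in heart and skeletal muscle (Cox6a2, Cox8b) beside widely expressed partners (Cox6a1, Cox8a). The catalytic subunits of complex IV and parts of the other complexes are encoded by mitochondrial DNA and were not analysed here, and neither was Cox7a1.

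Promoters of 6 members are shown because the results below turn on these genes. Cox8b and Cox7c were the lowest members under restriction in the control hearts, Cox6a1 was the lowest in the knockout hearts, Uqcrc1 and Uqcrfs1 were among the members that were higher in the restricted hearts, and Atp5k differed most between the genotypes. Each line gives the 250 bases before the annotated start of the gene, 5′ to 3′, from RefSeq (GRCm38.p6). They are chr7:140900447-140900696 (minus strand) for Cox8b, chr13:86046796-86047045 (minus) for Cox7c, chr5:115348959-115349208 (minus) for Cox6a1, chr9:108936398-108936647 (plus) for Uqcrc1, chr13:30545317-30545566 (minus) for Uqcrfs1 and chr5:108434400-108434649 (minus) for Atp5k. Capitals mark matches on either strand to the letters CGCATGCG (the core of the NRF1 site), CCGGAAG (ETS family, which includes GABPA), AAGGTCA (an element bound by estrogen-related receptors) and AAGATGGC (YY1).
Cox8b: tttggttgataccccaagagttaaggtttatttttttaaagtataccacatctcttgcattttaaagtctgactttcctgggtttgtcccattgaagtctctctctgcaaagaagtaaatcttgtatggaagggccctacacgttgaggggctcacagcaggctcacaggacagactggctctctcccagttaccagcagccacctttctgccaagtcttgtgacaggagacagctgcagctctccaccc
Cox7c: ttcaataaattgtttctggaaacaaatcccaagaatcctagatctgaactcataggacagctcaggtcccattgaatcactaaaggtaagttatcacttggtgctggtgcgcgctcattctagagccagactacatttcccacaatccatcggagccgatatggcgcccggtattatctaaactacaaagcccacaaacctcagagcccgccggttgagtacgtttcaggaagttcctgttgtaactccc
Cox6a1: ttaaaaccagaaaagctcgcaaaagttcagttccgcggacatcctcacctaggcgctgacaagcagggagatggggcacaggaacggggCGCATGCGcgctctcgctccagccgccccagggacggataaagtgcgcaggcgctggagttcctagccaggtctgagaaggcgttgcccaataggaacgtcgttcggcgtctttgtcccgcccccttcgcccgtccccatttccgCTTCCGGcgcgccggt
Uqcrc1: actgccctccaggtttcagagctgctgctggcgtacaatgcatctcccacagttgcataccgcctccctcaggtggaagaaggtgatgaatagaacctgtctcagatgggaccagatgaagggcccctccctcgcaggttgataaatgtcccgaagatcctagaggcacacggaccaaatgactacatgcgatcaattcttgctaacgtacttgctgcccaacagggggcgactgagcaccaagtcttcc
Uqcrfs1: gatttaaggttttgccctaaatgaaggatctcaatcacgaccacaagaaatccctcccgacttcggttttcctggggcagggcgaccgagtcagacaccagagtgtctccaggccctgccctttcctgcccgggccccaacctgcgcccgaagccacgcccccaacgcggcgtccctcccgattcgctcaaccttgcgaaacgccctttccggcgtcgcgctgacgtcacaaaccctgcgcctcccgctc
Atp5k: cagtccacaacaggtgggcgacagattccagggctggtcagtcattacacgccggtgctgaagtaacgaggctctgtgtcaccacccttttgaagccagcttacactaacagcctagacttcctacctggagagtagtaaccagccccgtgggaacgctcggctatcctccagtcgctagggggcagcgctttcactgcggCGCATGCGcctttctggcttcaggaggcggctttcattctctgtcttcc
The muscle isoform Cox8b had the promoter poorest in CpG of the 6, with 1 CpG in 250 bases and 47.2% G or C, and Cox7c had 9 CpG and 46.4%. The promoters of Cox6a1 and Uqcrfs1 held 26 and 23 CpG, with 62.8% and 62.4% G or C, and those of Uqcrc1 and Atp5k held 8 and 13. In Cox6a1 the NRF1 letters began 161 bases and the ETS letters, on the other strand, 16 bases before the start. In Atp5k the NRF1 letters began 49 bases before the start.

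Promoter windows were given for 29 of the 39 subunit genes, and were searched with the 50 bases after the start included. The NRF1 letters, which read alike on both strands, were in 7 of 29 members (24.1%), against 2.07% of the 27025 genes with a window. The ETS letters were in 10 members (34.5%, against 9.93%), those of the estrogen-related receptors in 4 (13.8%, against 5.38%) and those of YY1 in 3 (10.3%, against 3.19%). By complex, 3 of 4 genes of complex III, 3 of 11 of complex IV and 9 of 14 of ATP synthase held at least 1 of the 4, against 18.9% of all genes with a window. The genes with the NRF1 letters were Uqcr, Uqcrc1, Cox6a1, Atp5g2, Atp5j, Atp5k and Atp5l. The match of Uqcrc1 lay after the start and is not printed. Atp5k and Atp5l held the NRF1, ETS and receptor letters together. The ETS and receptor letters of Atp5k did not lie wholly within the printed bases and are not marked there. A match describes the letters in this window and nothing more. The subunit genes without a window were Cyc1, Uqcrb, Uqcrc2, Uqcrq, Cox4i1, Cox4i2, Cox6a2, Cox6c, Cox8c and Atp5a1.

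On each array, between 74.0% and 80.7% of 23473 probes were detected in a heart. Values are log2 signals, the normalized spot brightness on a scale where a step of 1 is a doubling, and differences of such signals. Of the 39 subunit genes, 37 were detected in all 4 hearts (7 of complex III, 15 of complex IV and 15 of ATP synthase), and 35 of these 37 lay in the brightest 10% of the 11698 genes detected throughout. Among that brightest 10% the CR over AL values of all genes spread more widely (SD across genes 0.31 on the control array) than among all 12658 genes compared there (SD 0.18). Signal of 4 members reached the range read only at the lowest gain of the scanner: Atp5g3 in all 4 hearts, Atp5c1 in both knockout hearts, Atp5b in the control CR heart and Cox7b in the control AL heart. Without these 4 members the 15 medians of the complexes moved by less than 0.15. Sirt1 itself was at 7.11 and 7.53 in the freely fed and restricted control hearts and at 7.07 and 7.51 in the knockout hearts. The sources used here do not say whether its probe falls within the deleted exons, and other cells of the heart keep the gene, so these values are no check of the genotype. Of 16 cardiomyocyte markers 15 had a probe and all 15 were detected in every heart, with a summed spot signal between 276101 and 293493 scanner units. This sum is of raw signals before normalization and leans on bright spots, such as Myl2 at 65197 in the control AL heart. It is no measure of cell content.

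**Figure D1:**
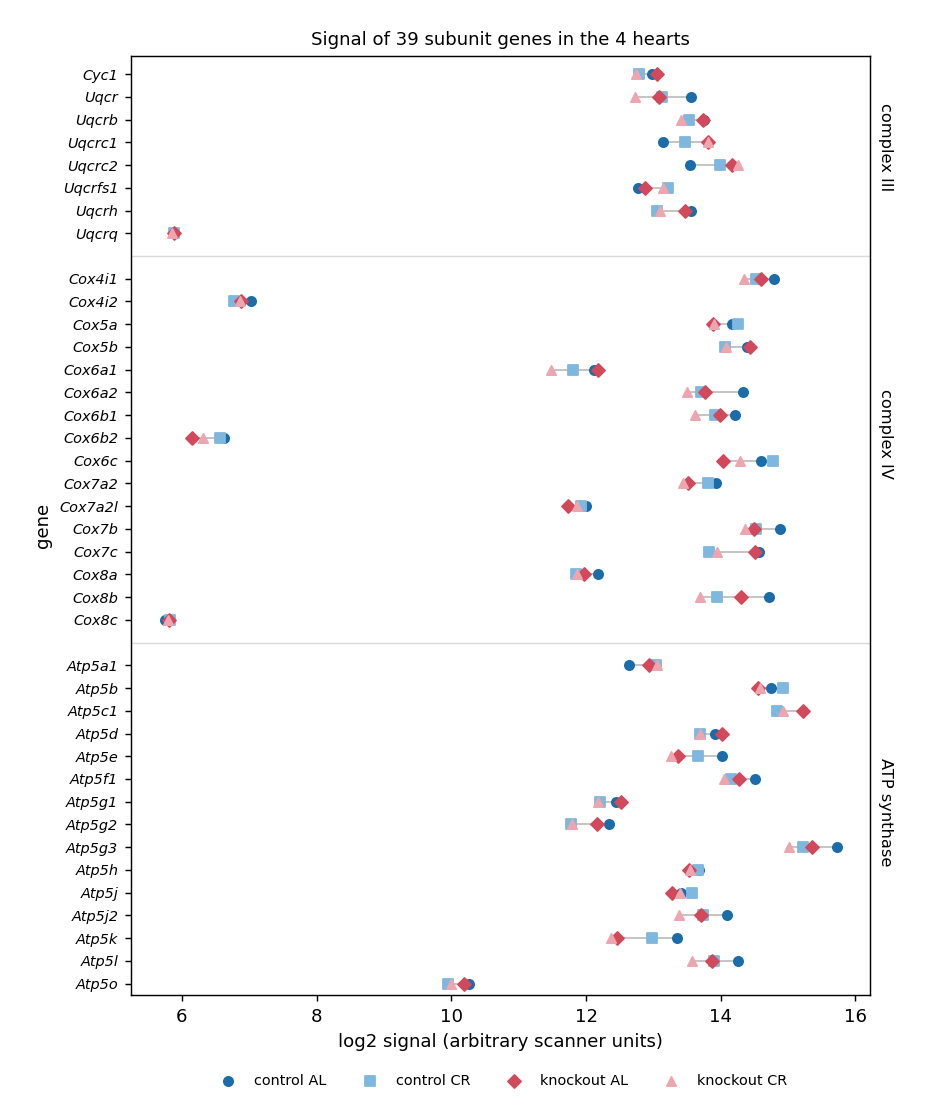
Log2 signal of the 39 subunit genes in each of the 4 hearts, 1 point per heart, grouped by complex. Most members sit between about 12 and 15 in every heart, and Uqcrq, Cox8c, Cox6b2 and Cox4i2 lie at the low end; signals of different genes come from different probes and are not to be compared with each other.

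The first question was how restriction changed the complexes in control hearts. Of the 37 members 29 were lower in the CR heart than in the AL heart, while 48.6% of all 12658 genes were. At least 1.5-fold lower were 3 members, all of complex IV, against 0.34% of all genes, and 0 were at least 1.5-fold higher, against 0.814%. Of the brightest 10% of genes, 47.2% were lower, 1.45% lower by that fold and 4.02% higher by it. The median log2 difference was -0.18 for complex III, -0.30 for complex IV and -0.31 for ATP synthase, each within a spread of members that ran to both sides of 0.

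In complex III the control hearts split by subunit, with 4 members lower and 3 higher under restriction. Uqcrh, the acidic hinge protein that helps cytochrome c1 meet cytochrome c, showed log2 signals of 13.55 (AL) and 13.05 (CR) in the control pair and of 13.47 and 13.09 in the knockout pair. Uqcr (now Uqcr11), a small membrane subunit, was at 13.56 and 13.12 in the control pair and at 13.09 and 12.73 in the knockout pair. Both genes were thus lower in the CR heart of each pair, by -0.50 and -0.38 for Uqcrh and by -0.44 and -0.36 for Uqcr.
Uqcrb, a small subunit on the matrix side, was at 13.75 and 13.53 in the control hearts and 13.73 and 13.41 in the knockout hearts. Cyc1, cytochrome c1 itself, was at 12.98 and 12.79 in the control hearts and 13.05 and 12.75 in the knockout hearts. The CR over AL values of this pair, -0.22 and -0.33 for Uqcrb and -0.18 and -0.30 for Cyc1, had the same sign on both arrays.

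The core proteins and the iron-sulfur protein of complex III ran the other way. Uqcrfs1, the Rieske iron-sulfur protein, showed log2 signals of 12.77 (AL) and 13.21 (CR) in the control pair and of 12.88 and 13.15 in the knockout pair. Uqcrc2, 1 of the core proteins on the matrix side, was at 13.55 and 13.99 in the control hearts and at 14.17 and 14.26 in the knockout hearts. Uqcrc1, its partner, was at 13.14 and 13.48 in the control hearts and at 13.81 and 13.81 in the knockout hearts. In the control pair the CR heart was the higher of the 2 for all 3 genes, by 0.45, 0.44 and 0.33, and in the knockout pair by 0.26, 0.08 and 0.01. This grouping of Uqcrc1, Uqcrc2 and Uqcrfs1 was made after their values were seen. Their median of 0.44 stood beside -0.33 for the other 4 detected members in the control hearts, and 0.08 beside -0.34 in the knockout hearts. With the local background around each spot subtracted, Uqcrc2, Uqcrfs1 and Uqcrc1 were at 1.22, 0.47 and 0.43 in control and at 0.23, 0.56 and 0.59 in knockout hearts, while Cyc1, then the median member of complex III in control hearts, turned to 0.089 there. Uqcrq, another small subunit, was detected in the control AL heart alone, with log2 signals between 5.85 and 5.89, so no difference is given.

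In complex IV 13 of 15 detected members were lower in the control CR heart. Cox8b, the muscle isoform of subunit 8, showed log2 signals of 14.71 (AL) and 13.94 (CR) in the control pair and of 14.30 and 13.69 in the knockout pair. Cox7c, a single-pass membrane subunit, was at 14.57 and 13.82 in the control hearts and 14.52 and 13.94 in the knockout hearts. Cox6a2, the muscle isoform of subunit 6a, was at 14.33 and 13.70 in the control hearts and 13.77 and 13.49 in the knockout hearts. The control AL heart was the highest of the 4 for all 3 of these genes, and each pair had its lower signal in the CR heart.
The CR heart was lower by -0.77 (1.71-fold) for Cox8b, by -0.75 (1.68-fold) for Cox7c and by -0.63 (1.55-fold) for Cox6a2 in the control pair, and by -0.61, -0.58 and -0.28 in the knockout pair. With the local background subtracted Cox7c was at -1.69 and -0.86 and Cox6a2 at -0.49 and -0.07, while Cox8b was at -1.01 in the control pair and turned to 1.21 in the knockout pair. The brightness around the Cox8b spot was 97.8% of the spot's own in the knockout AL heart and 91.8% in the knockout CR heart, against 50.3% and 61.4% in the control hearts.

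The widely expressed partners of these isoforms differed from them in size. Cox6a1 showed log2 signals of 12.11 (AL) and 11.80 (CR) in the control pair and of 12.18 and 11.48 in the knockout pair. Its knockout CR heart was the lowest of the 4, and it differed between the diets by -0.31 in control and by -0.70 (1.62-fold lower) in knockout hearts. Cox8a was at 12.17 and 11.85 in the control hearts and 11.97 and 11.86 in the knockout hearts, a difference of -0.33 and -0.11. Thus Cox6a2 was farther from 0 than Cox6a1 in the control pair and nearer to 0 in the knockout pair, whereas Cox8b was farther from 0 than Cox8a in both pairs. The order of Cox6a2 and Cox6a1 in the control pair turned with the local background subtracted, where Cox6a2 was at -0.49 and Cox6a1 at -0.64. No test of these differences was possible. In the knockout pair that setting put Cox6a1 at -0.86, and it put Cox8a at -0.36 and 0.24 in the control and knockout pairs.

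The remaining isoform families of complex IV had CR over AL values nearer to 0 than those of Cox8b. Cox4i1, the common form of the largest nuclear subunit, showed log2 signals of 14.79 (AL) and 14.53 (CR) in the control pair and of 14.59 and 14.34 in the knockout pair, a difference of -0.26 on both arrays. Cox4i2, the form known from lung and low oxygen, was near the low end of detected signals, at 7.02 (AL) and 6.77 (CR) in the control pair and at 6.87 and 6.87 in the knockout pair. Cox6b1, which faces the intermembrane space, was at 14.22 and 13.92 in the control hearts and 13.98 and 13.62 in the knockout hearts. The common forms Cox4i1 and Cox6b1 were thus lower in the CR heart of both pairs, Cox6b1 by -0.30 and -0.37. In the control pair, however, Cox4i1 turned to 0.54 with the local background subtracted and was at -0.64 with loess within blocks.
Cox6b2, a form known from testis, was at 6.63 and 6.57 in the control pair and 6.14 and 6.32 in the knockout pair, and Cox8c, another testis form, was not detected in any heart. Cox7a2 was at 13.93 and 13.81 in the control hearts and 13.51 and 13.43 in the knockout hearts. Cox7a2l, named as a supercomplex assembly factor, was at 12.01 and 11.92 in the control pair and 11.73 and 11.87 in the knockout pair. These members had CR over AL values between -0.12 and 0.18, and their pairs of hearts lay close together.

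Of the other complex IV members, Cox7b, a membrane subunit, showed log2 signals of 14.88 (AL) and 14.52 (CR) in the control pair and of 14.50 and 14.36 in the knockout pair. Cox5b, the zinc-binding subunit on the matrix side, was at 14.39 and 14.07 in the control hearts and 14.44 and 14.08 in the knockout hearts. Both were lower in the CR heart of each pair, Cox7b by -0.35 and -0.14 and Cox5b by -0.33 and -0.37. Cox5a, the neighbour of Cox5b in the complex, was at 14.17 and 14.26 in the control hearts and 13.88 and 13.90 in the knockout hearts. Cox6c, a membrane subunit, was at 14.60 and 14.77 in the control hearts and 14.03 and 14.29 in the knockout hearts. Cox5a and Cox6c were the members of complex IV with a higher signal in the CR heart of both pairs, by 0.08 and 0.02 for Cox5a and by 0.17 and 0.26 for Cox6c. In the authors' deposited table all 15 members of complex IV had a control ratio below 0, Cox5a at -0.15 and Cox6c at -0.07 included. Loess within blocks put Cox5a at -0.038 and -0.075, and subtraction of the local background put it at -0.33 in the knockout pair.

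**Figure D2:**
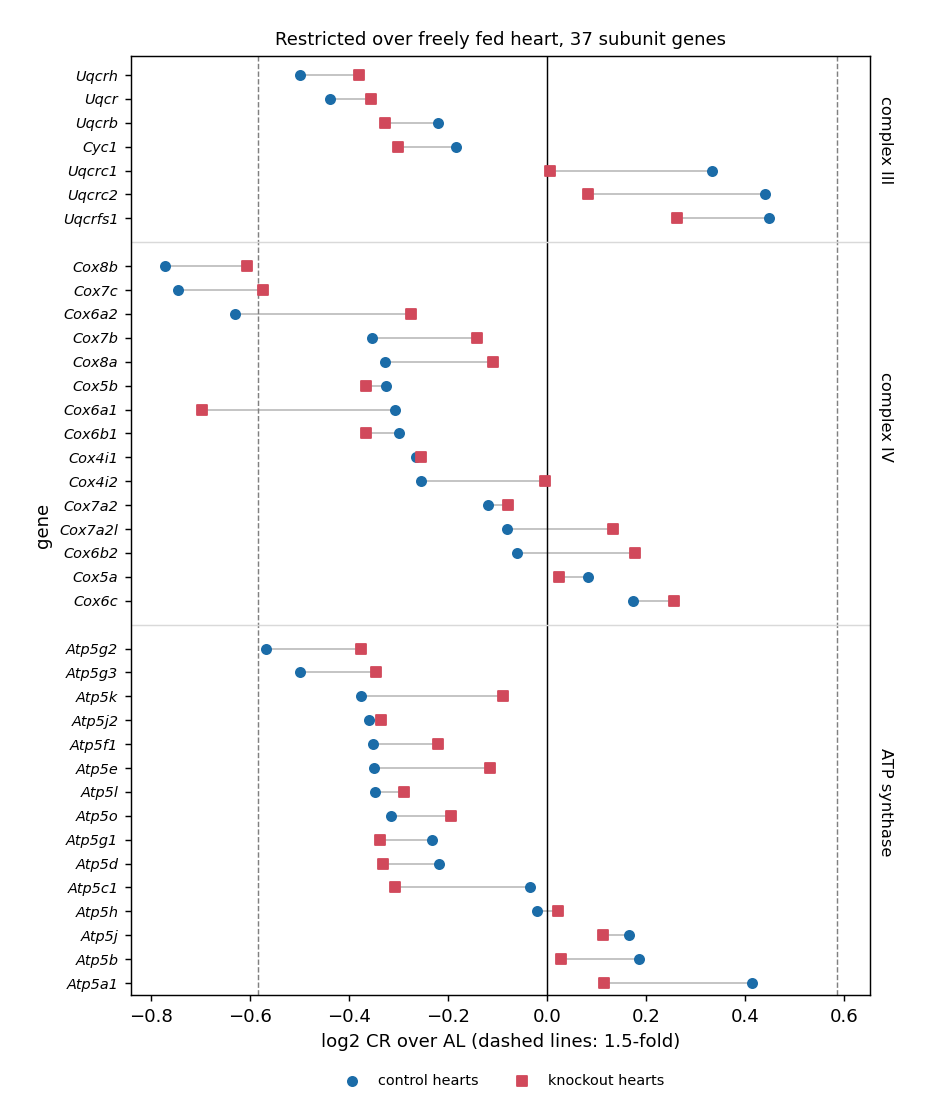
Log2 CR over AL of the 37 members detected in all 4 hearts, with 1 point for the control array (circles) and 1 for the knockout array (squares), grouped by complex and ordered by the control value. Dashed lines mark 1.5-fold; Cox8b, Cox7c and Cox6a2 lie beyond the lower line in control hearts and Cox6a1 and Cox8b in knockout hearts, while Uqcrfs1, Uqcrc2 and Atp5a1 have the highest control values.

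In ATP synthase 12 of 15 members were lower in the control CR heart. The c ring, which turns in the membrane, is built from 1 protein encoded by 3 genes that differ in their import sequences. Atp5g2 showed log2 signals of 12.34 (AL) and 11.77 (CR) in the control pair and of 12.16 and 11.79 in the knockout pair. Atp5g3 was at 15.72 and 15.22 in the control hearts and 15.35 and 15.01 in the knockout hearts, with all 4 readings at the lowest gain alone (spot signals between 32894 and 51934 scanner units). Atp5g1 was at 12.44 and 12.20 in the control hearts and 12.51 and 12.18 in the knockout hearts. All 3 genes were lower in the CR heart of both pairs, by -0.57 and -0.38 for Atp5g2, -0.50 and -0.35 for Atp5g3 and -0.23 and -0.34 for Atp5g1. Atp5g2 was at -1.09 in control and turned to 1.20 in knockout hearts when the local background was subtracted.

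The head of the enzyme was mixed. Atp5a1, the alpha subunit, showed log2 signals of 12.63 (AL) and 13.05 (CR) in the control pair and of 12.93 and 13.05 in the knockout pair. Atp5b, the catalytic beta subunit, was at 14.74 and 14.93 in the control hearts and 14.56 and 14.59 in the knockout hearts. The control AL heart was the lowest of the 4 for Atp5a1, and the CR over AL values were 0.41 and 0.11 for Atp5a1 and 0.18 and 0.03 for Atp5b.
The gamma subunit Atp5c1, the central shaft, was at 14.86 and 14.83 in the control hearts and 15.23 and 14.92 in the knockout hearts. Atp5d, the delta subunit at the foot of that shaft, was at 13.91 and 13.69 in the control hearts and 14.03 and 13.69 in the knockout hearts. Atp5e, the epsilon subunit beside it, was at 14.02 and 13.67 in the control hearts and 13.37 and 13.26 in the knockout hearts. Atp5d and Atp5e were lower in the CR heart of each pair (-0.22 and -0.33, and -0.35 and -0.12), and Atp5c1 was at -0.03 and -0.31. Atp5e lay above 0 in both pairs after subtraction of the local background, at 0.060 and 0.16, and at 0.011 in the knockout pair with median centring.

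Of the 7 genes of the membrane part and of the stalk that holds the head still, 6 were lower in the control CR heart and 5 in the knockout CR heart. Atp5k (subunit e) showed log2 signals of 13.36 (AL) and 12.98 (CR) in the control pair and of 12.45 and 12.36 in the knockout pair. Atp5j2 (subunit f) was at 14.09 and 13.73 in the control hearts and 13.71 and 13.38 in the knockout hearts, and Atp5l (subunit g) was at 14.25 and 13.90, and 13.87 and 13.58. These 3 membrane subunits had CR over AL values of -0.38, -0.36 and -0.35 in the control pair and of -0.09, -0.34 and -0.29 in the knockout pair. Atp5o, the protein that ties the stalk to the head, was at 10.27 and 9.95 in the control pair and 10.18 and 9.99 in the knockout pair, with differences of -0.31 and -0.19. Atp5j (coupling factor 6), also of the stalk, was higher in the CR heart of both pairs, at 13.41 and 13.57 in the control hearts and 13.28 and 13.39 in the knockout hearts. The other stalk genes, Atp5f1 (now Atp5pb) and Atp5h, were at -0.35 and -0.02 in the control pair and at -0.22 and 0.02 in the knockout pair. When the local background was subtracted, Atp5k turned to 0.077 and Atp5h to 0.076 in the control pair, and Atp5f1 and Atp5o turned to 0.128 and 0.145 in the knockout pair, which left 4 and 3 of the 7 genes below 0.

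In the knockout hearts the median CR over AL value was -0.30 for complex III, -0.14 for complex IV and -0.22 for ATP synthase. Lower in the CR heart were 26 of the 37 members (4, 11 and 11 by complex), against 49.9% of 12142 genes. At least 1.5-fold lower were Cox6a1 and Cox8b, against 0.758% of all genes, and 0 members were at least 1.5-fold higher, against 0.758%. Of the brightest 10% of genes 50.3% were lower, 2.31% lower by that fold and 2.22% higher by it. With median centring in place of loess the medians were -0.18, -0.01 and -0.13, and Cox6a1 (-0.60) was then the member left past 1.5-fold. They were -0.11, -0.06 and 0.0051 after subtraction of the local background.

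Across the 37 members the CR over AL values in control and knockout hearts, which come from different mice, had r = 0.78 and rho = 0.74, beside 0.597 and 0.538 across 11698 genes. Genes are not independent replicates, and both arrays share their probes and the orientation of the dyes. No r was computed over the brightest 10% of genes alone, where 35 of the 37 members lie. Of the members 26 were lower on both arrays, 8 were higher on both and 3 had opposite signs, against 33.5%, 33.5% and 32.9% of the 11698 genes and 37.1%, 39.6% and 23.3% of their brightest 10%. The 8 higher on both were Uqcrc1, Uqcrc2, Uqcrfs1, Cox5a, Cox6c, Atp5a1, Atp5b and Atp5j. After subtraction of the local background r across the members was 0.10 and rho 0.28.

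The study's central comparison is the knockout response minus the control response, in which a dye effect equal on both arrays is removed. Here 0 of the 37 members differed by 1.5-fold in either direction, against 0.513% of 11698 genes lower and 0.376% higher, and 15 members were below 0 (5 of complex III, 4 of complex IV and 6 of ATP synthase), against 51.0% of all genes. Of the brightest 10% of genes 1.62% were lower and 0.769% higher by that fold, and 53.8% were below 0. Past 1.5-fold were 7 members with the local background subtracted, where 12.5% of the brightest 10% of genes were lower and 17.9% higher by that fold, and 1 with a normexp offset of 0. The medians were -0.12 for complex III, 0.17 for complex IV and 0.04 for ATP synthase. In complex IV Cox6a2 was highest at 0.36, with Cox4i2 at 0.25 and Cox6b2 at 0.24, and Cox6a1 was lowest at -0.39, followed by Cox6b1 at -0.07 and Cox5a at -0.06. The isoforms of subunit 6a thus stood at the opposite ends of the complex. They kept these signs under each alternative that gave a response, at 0.42 and -0.22 with the local background subtracted and at 0.50 and -0.33 with median centring. In complex III Uqcrc2 was at -0.36 and Uqcrc1 at -0.33, at the low end, and Uqcrh and Uqcr were at 0.12 and 0.08. In ATP synthase Atp5k (0.29), Atp5e (0.23) and Atp5g2 (0.19) were highest, and Atp5a1 (-0.30), Atp5c1 (-0.27) and Atp5b (-0.16) lowest. In the authors' deposited ratios the medians were 0.14, 0.43 and 0.32, so complex III lay on the other side of 0 there.

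Between the genotypes the comparison runs across arrays and asks how the complexes differed in hearts without Sirt1 in their muscle cells. Under free feeding 27 of 37 members were lower in the knockout heart, against 47.5% of 12783 genes. At least 1.5-fold lower were Atp5k and Atp5e, against 1.77% of all genes, and at least 1.5-fold higher were Uqcrc1 and Uqcrc2, against 2.59%. Among the brightest 10% of genes 6.92% of genes were lower and 11.5% higher by that fold. Medians were 0.07 for complex III, -0.27 for complex IV and -0.18 for ATP synthase. Under restriction 25 of 37 members were lower, against 49.1% of 11957 genes. Of these Atp5k was lower by at least 1.5-fold, against 1.06%, and 0 members were higher, against 1.44%. Among the brightest 10% of genes 3.25% were lower and 4.96% higher by that fold. The medians of the complexes were then -0.05, -0.21 and -0.12. Lower under both diets were 21 members and higher under both were 6. The difference under restriction equals the difference under free feeding plus the difference of the responses, so the diets are not independent views of the genotype.

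The sign of the genotype difference depended on the processing for complexes III and IV. With median centring the median of complex III was -0.38 under free feeding and -0.36 under restriction, that of complex IV -0.54 and -0.27, and that of ATP synthase -0.52 and -0.37. In that setting the brightest 10% of genes also shifted downward, with medians of -0.17 and -0.18, and 12 members were at least 1.5-fold lower under free feeding and 0 higher, against 17.7% and 5.98% of that brightest 10% and 3.00% and 1.93% of all genes. After subtraction of the local background the medians of complexes III and IV were 0.40 and -0.047 under free feeding and 0.56 and 0.054 under restriction. Subtracting the local background gave numbers past 1.5-fold of 25 under free feeding (12 lower and 13 higher) and 23 under restriction (12 lower and 11 higher). Of the brightest 10% of genes, 32.7% were then lower and 35.6% higher by that fold under free feeding, and 32.2% and 37.4% under restriction, so the members were close to the share of other bright genes.

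Atp5k was the member with the largest genotype difference, -0.90 under free feeding (1.87-fold lower) and -0.62 under restriction (1.53-fold lower), and both knockout hearts were below both control hearts. It was at -1.29 and -0.88 with median centring, and at -0.29 and -0.76 with the local background subtracted. Atp5e was lower by -0.65 (1.56-fold) and -0.41, again with both knockout hearts below both control hearts, and Cox6c by -0.57 and -0.48 in the same way. In complex IV Cox6a2 was at -0.56 and -0.21 and Cox7a2 at -0.42 and -0.37. With median centring Atp5e was at -0.98 and -0.59 and Cox6c at -0.87 and -0.60.
Uqcrc1 was higher in the knockout heart by 0.66 (1.58-fold) under free feeding and 0.34 under restriction, and Uqcrc2 by 0.63 (1.55-fold) and 0.27. For both genes the control AL heart was the lowest of the 4 and both knockout hearts were above both control hearts. With median centring they were at 0.32 and 0.14, and 0.28 and 0.09, and the control AL heart stayed the lowest. Atp5c1 was at 0.37 and 0.09 and Atp5a1 at 0.30 and 0.00. With median centring Atp5c1 was at 0.23 and 0.17, while Atp5a1 turned to -0.14 and -0.32. At the low end of complex III, Uqcr was at -0.47 and -0.39.

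**Figure D3:**
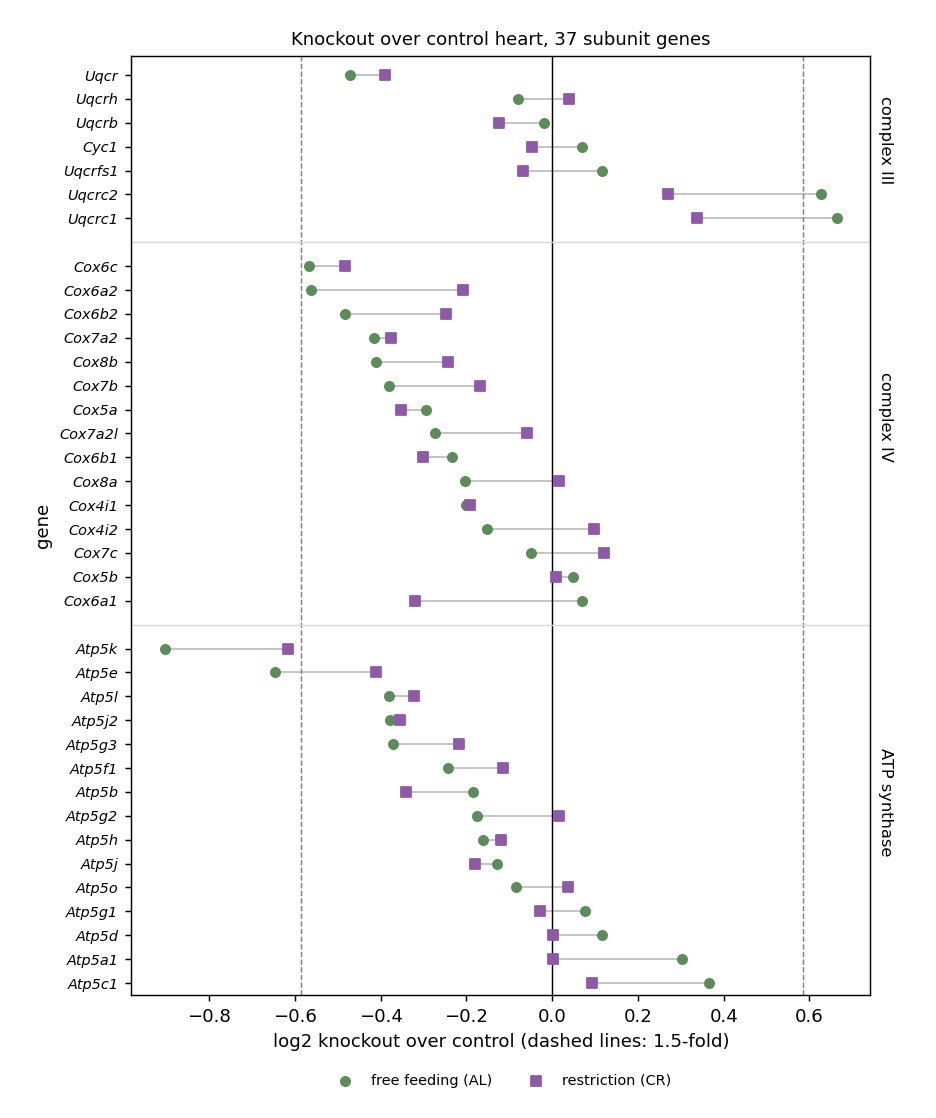
Log2 knockout over control of the 37 members under free feeding (circles) and restriction (squares), grouped by complex and ordered by the value under free feeding. Dashed lines mark 1.5-fold; Atp5k lies beyond the lower line under both diets and Uqcrc1 and Uqcrc2 beyond the upper line under free feeding.

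Values of other genes of the same pathway are given beside those of the subunits. The 4 subunit genes of complex II, which feeds electrons from succinate into the chain, had a median CR over AL value of 0.14 in control and 0.12 in knockout hearts. With the local background subtracted these medians were -0.075 and 0.28. Sdha, the large flavoprotein of complex II, was at 0.56 and 0.29, and Sdhd, a small membrane anchor, at -0.25 and -0.35. Cycs, the cytochrome c that carries electrons from complex III to IV, was at 0.34 and 0.17, and Atpif1, the inhibitor of ATP synthase, at 0.19 and -0.06. Of 10 genes chosen to follow mitochondrial content 8 were higher in the control CR heart (median 0.20) and 7 in the knockout CR heart (median 0.08), with the outer membrane channel Vdac2 at 0.51 and 0.25 and the inner membrane scaffold Phb at 0.39 and 0.22.
For each complex the assembly factors had a median closer to 0 than the subunits, only slightly so for complex III in control hearts. With the local background subtracted the order turned for ATP synthase in knockout hearts, at 0.17 for the factors and 0.0051 for the subunits. Many of these factors had log2 signals below 9.28, the level that marks the brightest 10% of genes. Over all genes, CR over AL values spread less than among that brightest 10%. The medians of 20 factors of complex IV were -0.02 and -0.04, with 11 and 14 below 0, those of 5 factors of complex III -0.14 and -0.13, and those of 4 factors of ATP synthase 0.00 and 0.03. Of the complex IV factors Cox14 was at -0.48 and -0.38, Higd2a at -0.45 and -0.44, Surf1 at 0.36 and 0.28 and Cox20 at 0.24 and 0.42. Among 14 nuclear regulators of these genes the medians were 0.02 and -0.07. Ppargc1a, the coactivator that drives mitochondrial biogenesis, was at 0.49 and 0.51, while Nrf1 was at -0.06 and 0.09, Gabpa at -0.05 and 0.01, and Esrra, estrogen-related receptor alpha, at 0.03 and 0.02. Nrf1 and Gabpa were dim, with log2 signals of 6.39 and 7.53 in the control AL heart. These lists are described by their counts, and no test sets them apart from the subunits.

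Marker lists of other cells are given beside these values. Fibroblast markers were lower in 8 of 11 in the control CR heart (median -0.26) and in 9 of 11 in the knockout CR heart (median -0.32), at least 1.5-fold lower in 1 and 4 of them, with summed spot signals of 10168 (AL) and 9255 (CR) scanner units in the control pair and of 8345 and 9595 in the knockout pair. Sums in this paragraph are of raw spot signals, before normalization. Macrophage markers were lower in 10 of 11 (median -0.28) and 10 of 10 (median -0.53), at least 1.5-fold lower in 2 and 5, with sums between 2048 and 2894 and 1 marker not detected in the knockout CR heart. Below 0 were 48.6% and 49.9% of all genes, and 0.34% and 0.758% were at least 1.5-fold lower. Markers of endothelium had medians of 0.05 and -0.11, of smooth muscle and pericytes 0.09 and 0.09, and of adipocytes -0.02 and 0.00079. Cardiomyocyte markers had medians of 0.18 and -0.03, lower in 6 and 8 of 15. At least 1.5-fold lower were 3 and 4 of them, and 2 and 0 were at least 1.5-fold higher. Higher by that fold were 0.814% and 0.758% of all genes. Of the brightest 10% of genes 1.45% and 2.31% were lower and 4.02% and 2.22% higher by it. Their values ran from -0.724 (Mb) to 1.295 (Myh6) in the control pair and from -0.768 (Myl3) to 0.537 (Mybpc3) in the knockout pair. Between the genotypes the cardiomyocyte medians were 0.17 under free feeding and 0.06 under restriction. Between the genotypes, fibroblast markers were above the control level in 8 of 11 under free feeding (median 0.40) and in 9 of 11 under restriction (median 0.16), and macrophage markers in 10 of 11 (median 0.29) and 8 of 10 (median 0.14). Of all genes, 47.5% and 49.1% were below the control level in these comparisons. Among 7 atrial markers (medians -0.09 and -0.15) the light chains Myl7 and Myl4 lay far below the control hearts, at -3.95 and -2.47 under free feeding and -4.06 and -2.71 under restriction, while atrial natriuretic peptide (Nppa) was higher by 0.99 and 1.95. Under free feeding the other atrial markers Sln, Nr2f2, Bmp10 and Dkk3 lay between -0.13 and 0.13. They were dim, with spot signals between 41.6 (Sln) and 106 (Nr2f2) in the control AL heart, where the detection limit was 34.8. A fall as large as that of Myl7 or Myl4 could therefore not show in full. Sln lay near the limit. Nr2f2, Bmp10 and Dkk3, at 106, 81.5 and 70.8, left room for a smaller fall. Myl7 and Myl4 had spot signals of 1198 and 672 in that heart and of 57.0 and 104 in the knockout AL heart. The part of these markers in the differences of the subunit genes was not tested.

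**Figure D4:**
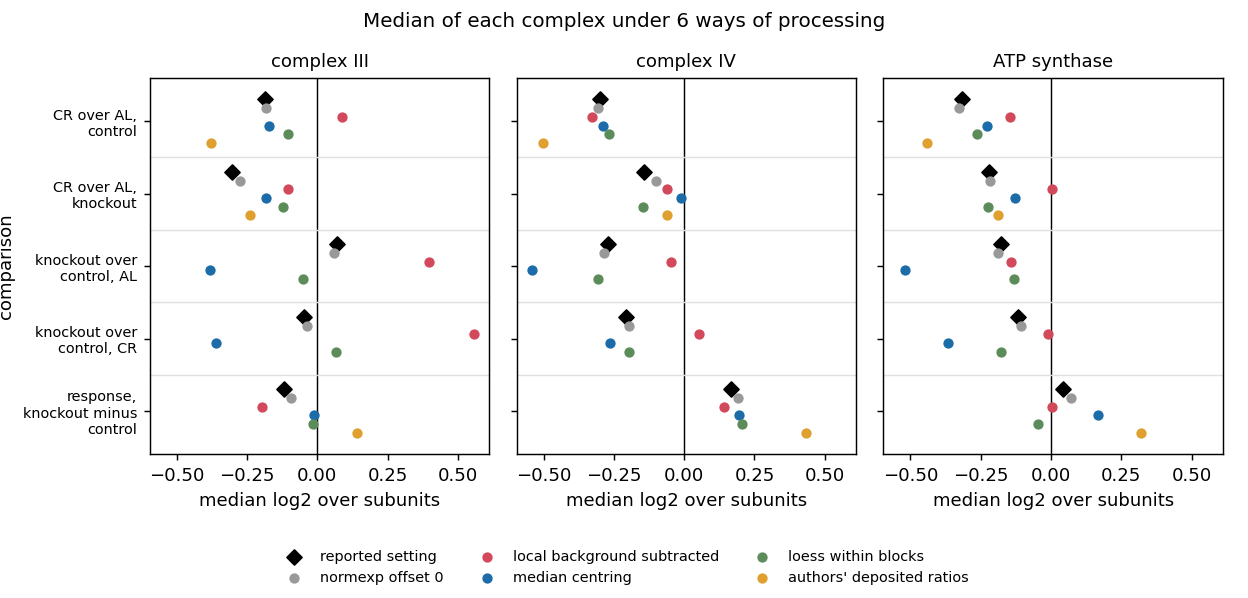
Median log2 of the detected subunits of each complex for the 5 comparisons, under the reported setting (diamonds) and 5 other ways of processing the same arrays (circles). Complex IV stays below 0 in CR over AL of control hearts under all 6, at -0.27 to -0.50, while complex III changes sign there with the local background subtracted, and in the comparison of the genotypes under free feeding with median centring and with loess within blocks.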

How the data were processed

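The authors deposited 2 scanner files with the spot intensity, the median brightness inside and around each spot at both wavelengths, per the file headers, and the deposited table holds log2 values, the ratio of the CR to the AL heart, per the labels. That table was rebuilt from the scanner intensities minus the blank mean and a constant (0.359 and 0.144); 17404 of 17405 and 16554 of 16555 values lay within 0.001, and its column medians were -2.885e-06 and 8.079e-05. For the scanner software and the probe sequences, the sources used here give no name or letters.

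Spot medians were corrected with normexp (offset 50) without the local background, normalized by loess within arrays and by Aquantile between arrays (limma 3.58.1, R 4.3.3), with control and marked spots at weight 0. The normexp and loess steps were tested on simulated data for CR over AL. Changes were put into bright spots alone, equally on both simulated arrays, and the estimate was the mean of both arrays. That test did not cover the Aquantile step, the comparisons between genotypes or the local background. Nor does it give the precision of a single array, on which each CR over AL value here rests. A spot was detected above the mean of 2736 blanks, 5% trimmed at each end, plus 2 SD. Of 23473 probes 16631 had 1 symbol and 6842 none. The threshold was 1.5-fold. With 1 heart per condition no p-value is given, and the number of arrays limits precision. Members, lists and the per-heart values to print were chosen with earlier results of these data known. Alternatives were a normexp offset of 0, local background subtraction, median centring, loess within blocks, no detection filter, all probes averaged, members at the lowest gain left out (readings at 29910 or more in whole numbers, a definition made after seeing the files), updated symbols, the authors' ratios and quantile scaling of all 4 channels.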

Additional observations from a re-analysis of the deposited data

Results flagged for a closer look

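The CR over AL values of 3 members had opposite signs on the control and knockout arrays, and the difference was not tested. Atp5h, subunit d of the ATP synthase stalk, was at -0.020 in control and 0.023 in knockout hearts. Cox6b2, a dim testis form of complex IV, was at -0.061 and 0.18, and the supercomplex factor Cox7a2l was at -0.082 and 0.13. With the local background subtracted Atp5h was at 0.08 and 0.05, Cox6b2 at -0.08 and 0.02 and Cox7a2l at -0.14 and 0.31, so the opposite signs of Atp5h were lost and the others were kept.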

How the results depend on the processing

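No paired analysis was possible because each genotype has 1 array. Medians are in the order complex III, complex IV, ATP synthase where more than 1 is given. With the local background subtracted, CR over AL was 0.089 for complex III and -0.14 for ATP synthase in control hearts and -0.11 and 0.0051 in knockout hearts, and knockout over control was 0.40 and -0.047 for complexes III and IV under free feeding and 0.56 and 0.054 under restriction. With median centring, knockout over control was -0.38, -0.54 and -0.52 under free feeding, and under restriction -0.36 for complex III and -0.37 for ATP synthase. With loess within blocks complex III was at -0.12 for CR over AL in knockout hearts and at -0.050 and 0.066 for knockout over control, and the response of ATP synthase was -0.047. In the authors' deposited ratios complexes III and IV were at -0.38 and -0.50 in control hearts, and the responses were 0.14, 0.43 and 0.32. The other medians moved by less than 0.15 and kept their sign.

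Cox8b in knockout hearts turned from -0.61 to 1.21 with the local background subtracted. Over all members, Cox8b included, the sign turned in that setting for 6, 8, 11, 14 and 12 of 37 in the comparisons as ordered below, for 0, 4, 7, 8 and 7 with median centring and for 2, 4, 1, 2 and 4 with loess within blocks. The members past 1.5-fold numbered 3, 2, 4, 1 and 0 in CR over AL of control and of knockout hearts, knockout over control under free feeding and under restriction, and the response. Subtracting the local background gave 5, 6, 25, 23 and 7, and the numbers were 3, 1, 12, 4 and 0 with median centring, and 3, 1, 5, 2 and 1 with offset 0. The cause was not tested. The brightness around a member's spot had a median of 51.7% to 60.6% of the spot's own, and 66.3% to 83.4% over all genes, which limits how far any level can be separated from its surroundings. Blank spots, however, had trimmed means between 32.5 and 75.6 scanner units. Around the Cox8b spot of the knockout AL heart the brightness was 97.8% of 16879 units. The brightness around a spot was thus no level shared by the whole array, and why it differed was not tested.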

Other observations

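Among the genes whose symbols met the names but which encode no subunit, Atp5s (now Dmac2l) was at 0.39 and 0.29 for CR over AL in control and knockout hearts, and Cox4nb (now Emc8), a subunit of a membrane insertion complex of the endoplasmic reticulum, was at 0.15 and 0.22. Both were higher in the CR heart of each pair. Updated symbols added 3 subunit genes that the platform lists under clone names. Uqcr10, a small subunit of complex III, was at -0.46 and -0.38, Atp5mpl, a small membrane subunit of ATP synthase, at -0.39 and -0.32, and the dim Cox7b2, known from testis, at -0.07 and -0.18. With these 3 added, no median of a complex moved by 0.15 or more.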
